A study of Equus caballus with 14 samples.

Results

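The dystrophin complex and its neighbors in the sarcolemma were followed through 8 genes: Dmd (dystrophin), Utrn (utrophin), Dag1 (dystroglycan), Sgca, Sgcb and Sgcd (alpha-, beta- and delta-sarcoglycan), SSPN (sarcospan) and Dysf (dysferlin). The genes were chosen by name, without regard to case, among the gene names of the equine probes and the annotated symbols of the mouse probes, which together hold 12082 symbols. They had 14 of the 24493 probes on the microarray: 3 of 384 equine probes (SSPN, DAG1 and UTRN) and 11 of 24109 mouse probes. A test needed values from at least 5 horses, which 11 of the 14 probes had (2 equine and 9 mouse), and every gene kept at least 1 tested probe.

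Muscle RNA of 7 horses with polysaccharide storage myopathy (PSSM, horses 5, 12, 32, 38, 42, 44 and 54) was set against 1 pool of RNA from 6 control muscles on 14 two-color microarrays, with a dye-swapped pair for each horse. All samples were gluteus medius biopsies of adult Norman Cob horses. By the study's genotyping the PSSM horses carried the GYS1 mutation (horse 44 was homozygous and horses 12, 32, 38, 42 and 54 heterozygous; horse 5 of the labels is not in that list), whereas the control horses were wild type. The pool counts as 1 control sample, shared by every microarray, so differences among control horses are in no error given here. Tests count each horse once, so the number of PSSM horses limits the precision.

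Dystrophin is a long rod-shaped protein under the muscle fiber membrane that ties cytoskeletal actin to dystroglycan, which crosses the membrane and binds laminin in the basal lamina. The sarcoglycans and sarcospan form a subcomplex at the side of dystroglycan, and utrophin is a paralog of dystrophin that takes its place at the neuromuscular junction and in immature fibers. Dysferlin is no part of this complex: it serves the resealing of the torn membrane. In humans, loss of dystrophin, of a sarcoglycan or of dysferlin causes muscular dystrophy.

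Each value below is the log2 ratio of PSSM muscle over the control pool, averaged over the 2 microarrays of a horse, and errors are SD over horses. The mean was tested against 0 with limma, with p-values adjusted by Benjamini-Hochberg over the 361 tested equine probes and, separately, over the 13067 tested mouse probes, and a probe passed at an adjusted p under 0.05. Among all tested equine probes 24.4% passed (4.43% up and 19.9% down), and among all tested mouse probes 1.81% (0.452% up and 1.36% down). Centring each microarray on its equine probes changed the split of the equine calls, to 38 up and 45 down against 16 up and 72 down, since it moved the median of all probes up by 0.124. Of the 11 tested member probes, 1 passed: equine SSPN was down-regulated. Without adjustment 4 had a p under 0.05 (SSPN, DAG1, 1 Dmd probe and Sgcb), beside 38% of the equine and 19.1% of the mouse probes. The mouse probes of the 8 genes had a median log2 ratio of 0.11, against -0.01 over all tested mouse probes, with 7 means above 0 and 2 below. Their SD over horses had a median of 0.47, against 0.285 over all tested mouse probes. In a muscle biopsy, a lower ratio from fewer fibers and one from less RNA per fiber cannot be told apart, and since the table holds ratios only, the tissue was not checked by the level of its markers.

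**Figure D1:**
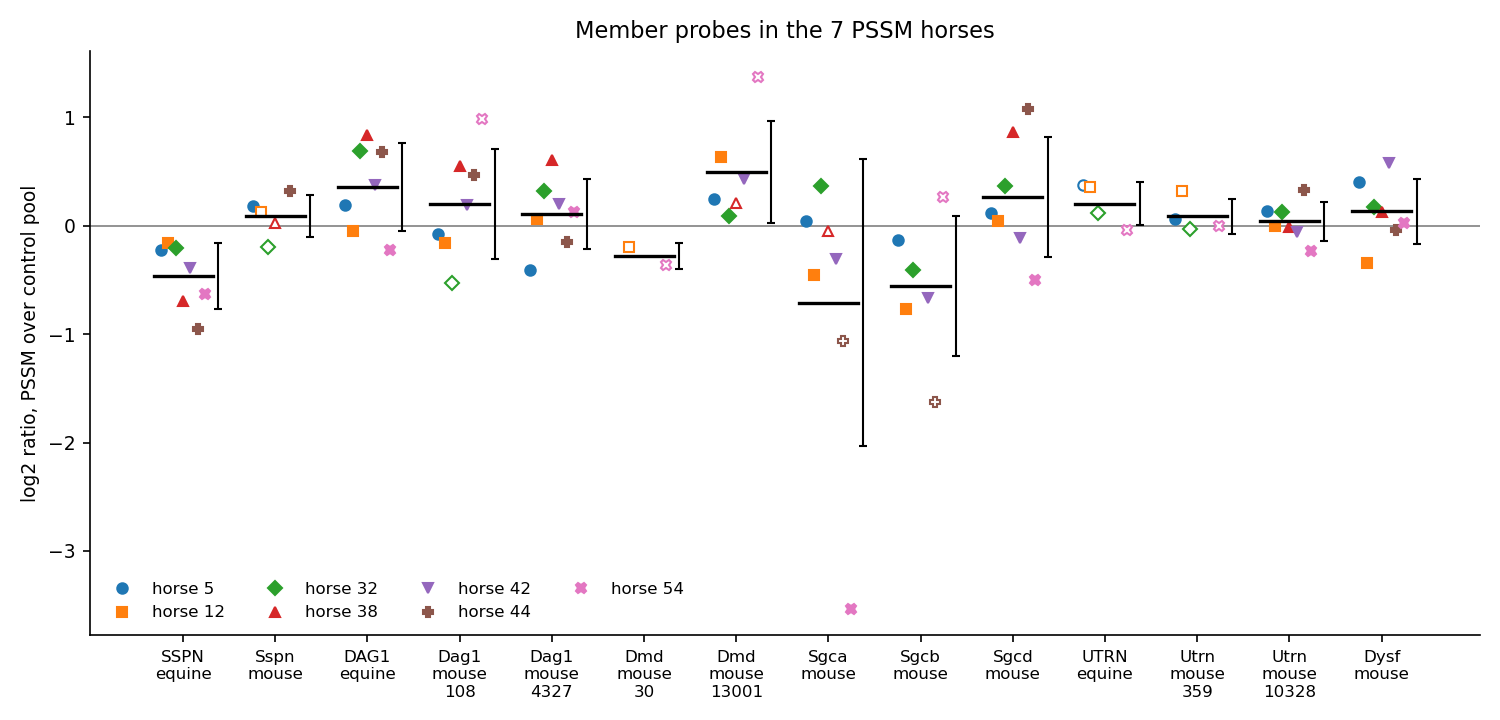
Log2 ratio of PSSM muscle over the control pool (y axis) for the 14 member probes (x axis, with the position from the probe name where a gene has several), 1 symbol per horse. Filled symbols average both microarrays of a horse and open symbols rest on 1; black lines give the mean and bars 1 SD over horses. All 7 horses lie below 0 for equine SSPN, and horse 54 stands apart at -3.53 for Sgca.

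Sarcospan, the small tetraspanin-like membrane protein anchored to the sarcoglycans, gave the one call. On the equine SSPN probe (sequence CX605718, position 591) the log2 ratio was -0.22 in horse 5, -0.16 in horse 12, -0.20 in horse 32, -0.70 in horse 38, -0.39 in horse 42, -0.95 in horse 44 and -0.63 in horse 54. Every horse lay below the control pool, horses 44, 38 and 54 the furthest, and horses 5, 12 and 32 the least. The mean was -0.47 ± 0.30 (n = 7, 95% interval -0.73 to -0.20), which is 1.38-fold lower in PSSM muscle (adjusted p = 0.0192 by limma). Sign-flipping the horses, an exact two-sided test, gave p = 0.0156, the smallest it can give for 7 horses. The paper also lists SSPN among its significantly changed genes, below the control.

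The 2 dye orientations of SSPN did not give the same ratio. With PSSM muscle in Cy5 the log2 ratio was -0.87 in horse 5, -1.04 in horse 12, -0.79 in horse 32, -1.13 in horse 38, -0.79 in horse 42, -1.08 in horse 44 and -1.02 in horse 54. With PSSM muscle in Cy3 it was 0.42, 0.73, 0.38, -0.27, 0.02, -0.82 and -0.25 in the same order of horses. In Cy5 all horses were below 0 and close to each other (-0.96 ± 0.14), whereas in Cy3 they spread on both sides (0.03 ± 0.53, with 3 below and 4 above). The difference, Cy5 minus Cy3, was -0.99 ± 0.475 (n = 7, adjusted p = 0.00086 by limma on the differences).

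The SSPN call also depended on the horses included and on the scaling. It ended without horse 38 (log2 ratio -0.43, adjusted p = 0.0593) and without horse 54 (-0.44, adjusted p = 0.0507), and it ended when the microarrays were centred on the equine probes (-0.34, adjusted p = 0.0561), when p-values were adjusted over all probes (0.0732) and when linear ratios were averaged (-0.37, adjusted p = 0.0726). The mouse Sspn probe (NM_010656), with values from 5 horses on 7 microarrays, read 0.19 in horse 5, 0.13 in horse 12, -0.19 in horse 32, 0.03 in horse 38 and 0.32 in horse 44. Only horse 32 was below 0 there, and the mean of 0.09 ± 0.19 did not pass (adjusted p = 0.639, 95% interval -0.15 to 0.34). In the 5 horses with both, the equine probe was lower than the mouse probe by a log2 difference (equine minus mouse) of -0.54 ± 0.48. It was lower in 5 of 5 horses, but p = 0.0625 is the smallest that the exact sign-flip test allows for 5 horses. Adjusted over the 5 pairs of probes compared, this p was 0.312. Horses 12, 32 and 38 had mouse Sspn values from their Cy3 microarrays only, so the dye does not cancel in this difference. On Cy3 microarrays alone the difference was -0.006 (n = 5), whereas on Cy5 microarrays alone it was -1.232 (n = 2). A lower reading of the equine probe was thus not seen when both probes were compared in Cy3.

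Dystroglycan, the laminin receptor at the center of the complex, had 1 equine and 2 mouse probes, none of which passed. Equine DAG1 (CX600578, position 397) read 0.19 in horse 5, -0.05 in horse 12, 0.69 in horse 32, 0.84 in horse 38, 0.38 in horse 42, 0.68 in horse 44 and -0.23 in horse 54. Horses 32, 38 and 44 were clearly above the control pool, and horses 12 and 54 below it. The mean was 0.36 ± 0.41 (n = 7, 95% interval 0.04 to 0.68), a ratio of 1.28 with an adjusted p of 0.0997 by limma and p = 0.0938 by the exact two-sided sign-flip test.

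The position of DAG1 relative to the threshold depended on the dye and on 1 microarray. With PSSM muscle in Cy5 the mean was 0.19, and with PSSM muscle in Cy3 it was 0.53, above 0 in 7 of 7 horses, which passed by itself (adjusted p = 0.0215). The dye difference, -0.34, did not pass (adjusted p = 0.0596). With the Cy5 microarray of horse 54 left out, the mean was 0.40 and passed (adjusted p = 0.0499), as it did after centring on the equine probes (0.48, adjusted p = 0.0327). Without horse 38 it was 0.28 (adjusted p = 0.224).

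Neither mouse Dag1 probe gave a mean beyond the spread among the horses. The probe on AA407500 read -0.08, -0.16, -0.53, 0.55, 0.19, 0.47 and 0.98 in horses 5, 12, 32, 38, 42, 44 and 54, with a mean of 0.20 ± 0.51 (adjusted p = 0.526), or 0.07 without horse 54. The probe on NM_010017 read -0.41, 0.06, 0.32, 0.61, 0.20, -0.15 and 0.13 in the same horses, with a mean of 0.11 ± 0.325 (adjusted p = 0.629), or 0.025 without horse 38. Horse 38 was above the control pool on all 3 dystroglycan probes, but horse 32 was high on 2 and the lowest on the third. The equine probe exceeded the first mouse probe by 0.16 ± 0.71 (p = 0.516) and the second by 0.25 ± 0.40 (p = 0.156, exact sign-flip tests, n = 7), neither beyond the spread between horses.

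Dystrophin itself was read only by mouse probes. On the Dmd probe of NM_007868 (position 13001) the log2 ratio was 0.25 in horse 5, 0.64 in horse 12, 0.09 in horse 32, 0.21 in horse 38, 0.43 in horse 42 and 1.37 in horse 54, and horse 44 had no value. All 6 horses were above the control pool, horse 54 by far the most, on its Cy3 microarray alone. The mean was 0.50 ± 0.47 (95% interval 0.11 to 0.88), a ratio of 1.41, and did not pass (adjusted p = 0.162). The exact sign-flip test gave p = 0.0312, the smallest for 6 horses. Without horse 54 the mean was 0.32 (adjusted p = 0.16), and on the Cy3 microarrays alone it was 0.545 and passed (adjusted p = 0.0348), against 0.28 over 4 Cy5 values. The other Dmd probe (U15218, position 30) had values only from horse 12 (-0.19) and horse 54 (-0.36), both with PSSM muscle in Cy3 and both below the control pool. It was not tested.

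Utrophin, the paralog of dystrophin, had 3 probes, of which only the mouse probe on Y12229 was tested. Equine UTRN (CX600572, position 479) had values only on Cy3 microarrays: 0.37 in horse 5, 0.36 in horse 12, 0.12 in horse 32 and -0.04 in horse 54, with a mean of 0.20 ± 0.20 and no test. The mouse probe on NM_011682 was read in the same 4 horses and not tested either, with a mean of 0.09 between -0.03 and 0.33. The mouse probe on Y12229 (position 10328) covered all horses, with a lowest value of -0.23 (horse 54), a median of -0.003 and a highest of 0.33 (horse 44). Its mean was 0.04 ± 0.18 (95% interval -0.14 to 0.22, adjusted p = 0.802), and without horse 44 it was -0.01. This probe was lower with PSSM muscle in Cy5 (-0.18) than in Cy3 (0.27, above 0 in 7 of 7 horses), a difference of -0.45 (adjusted p = 0.0127).

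The sarcoglycans are single-pass membrane proteins that hold each other in the membrane, and alpha- and beta-sarcoglycan had the lowest means among the members. On the mouse Sgcb probe (NM_011890) the log2 ratio was -0.13 in horse 5, -0.76 in horse 12, -0.41 in horse 32, -0.67 in horse 42, -1.63 in horse 44 and 0.26 in horse 54. All but horse 54 were below the control pool, and horse 44, read only in Cy5, was the lowest. The mean was -0.56 ± 0.65 (n = 6, 95% interval -1.07 to -0.05) and did not pass (adjusted p = 0.226, exact sign-flip p = 0.0938). Without horse 44 it was -0.34 (adjusted p = 0.356), and with linear ratios averaged -0.29 (adjusted p = 0.509).

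The 2 orientations of Sgcb lay on opposite sides of 0. With PSSM muscle in Cy5, 5 of 5 horses were below 0 (mean -1.60, adjusted p = 0.00354 by itself), whereas with PSSM muscle in Cy3 the mean was 0.53 (adjusted p = 0.0446). In 1 fit of all microarrays that allows for the dye and blocks on the horse, the Sgcb estimate was -0.54 and passed narrowly (adjusted p = 0.0486). Horses 44 and 54 each had 1 of the 2 orientations, so the dye does not cancel in their values.

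On the mouse Sgca probe (NM_009161) the log2 ratio was 0.05 in horse 5, -0.45 in horse 12, 0.37 in horse 32, -0.04 in horse 38, -0.30 in horse 42, -1.06 in horse 44 and -3.53 in horse 54. Horse 54 stood far below the others, and its Cy5 microarray was at the end of the deposited scale, a ratio of 0.01. That microarray holds 815 of 9474 values (8.6%) at this end, against 1 to 221 values on the other microarrays. The mean of -0.71 ± 1.32 did not pass (adjusted p = 0.382) and was -0.27 without that microarray.

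Delta-sarcoglycan had a mean above 0 with horses on both sides. The mouse Sgcd probe (NM_011891) read 0.12, 0.05, 0.37, 0.86, -0.12, 1.08 and -0.50 in horses 5, 12, 32, 38, 42, 44 and 54. Horses 44 and 38 were the highest and horse 54 the lowest, and the mean of 0.27 ± 0.55 did not pass (adjusted p = 0.446). It was 0.13 without horse 44 (adjusted p = 0.708) and 0.17 without horse 38 (adjusted p = 0.681). Its dye difference was the only one among the members called in the direction of Cy5 (0.34, adjusted p = 0.0401).

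Dysferlin, which brings vesicles to membrane wounds, had the largest dye difference of the 8 member probes on which it was tested (Sgcb, with both orientations in 4 horses, was not among them). The mouse Dysf probe (NM_021469) averaged 0.41 in horse 5, -0.34 in horse 12, 0.17 in horse 32, 0.12 in horse 38, 0.58 in horse 42, -0.04 in horse 44 and 0.03 in horse 54. Horse 42 was the highest and horse 12 the lowest, with a mean of 0.13 ± 0.30 (95% interval -0.12 to 0.38, adjusted p = 0.528), and the mean was 0.06 without horse 42 and 0.21 without horse 12. With PSSM muscle in Cy5 the values ran between -1.76 and -0.14, below 0 in 7 of 7 horses, and with PSSM muscle in Cy3 between 0.94 and 1.36, above 0 in 7 of 7. The means were -0.86 in Cy5 and 1.13 in Cy3, and each passed by itself (adjusted p = 0.0202 and 6.14e-05). The difference was -1.99 ± 0.61 (adjusted p = 0.000193). Averaging linear instead of log ratios turned Dysf into a call (0.47, adjusted p = 0.019).

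**Figure D2:**
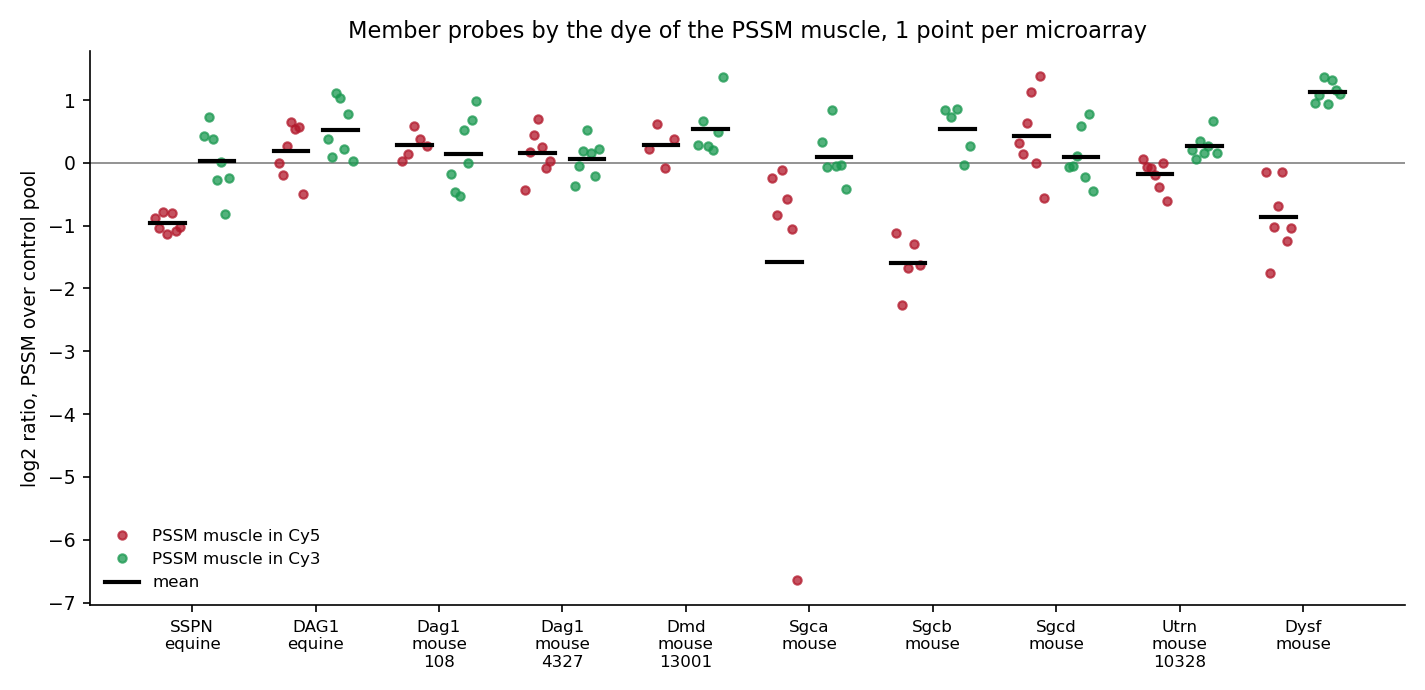
Log2 ratio of PSSM muscle over the control pool (y axis), 1 point per microarray, for the member probes with at least 4 values in each orientation (x axis); red, PSSM muscle in Cy5; green, PSSM muscle in Cy3; black line, mean. For Dysf the orientations do not overlap, between -1.76 and -0.14 in Cy5 and between 0.94 and 1.36 in Cy3, and SSPN averages -0.96 in Cy5 and 0.03 in Cy3.

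Over the members, a dye effect could be tested on 8 probes and was called on 4: SSPN, Utrn (Y12229) and Dysf read lower in Cy5, and Sgcd higher. Over all tested probes it was called on 55% of 342 equine and 38.5% of 9238 mouse probes. Of the 12 member probes with values in both orientations, 6 had means of opposite sign in the 2 orientations. Among these 6, SSPN averaged only 0.03 in Cy3, and Utrn (NM_011682) had 1 Cy5 value, at -0.02. The same share over all probes was not counted. The 2 microarrays of a horse correlated over all equine probes with an r between -0.22 (horse 32) and 0.63 (horse 44), and a median of 0.48, against a median of 0.58 between different horses in the same orientation. A whole-number rule, given below, marked signals taken to be at their lowest level among the 146 member values. It marked the PSSM signal of 4 (2.74%) and the control signal of 13 (8.9%), against 3.51% and 9.16% of all mouse values. A ratio of 1 is marked for both signals, and a ratio of 0.01 for PSSM. The PSSM marks were ratios of 1 for Dag1 (AA407500, horse 42), Utrn (NM_011682, horse 54) and Utrn (Y12229, horse 44), and Sgca of horse 54 at 0.01. The marked values included 5 of the 12 values of the Dag1 probe on AA407500.

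The calls for SSPN, DAG1 and Dysf moved with the processing. SSPN kept a negative estimate in every setting plotted except Cy3 alone (0.03), DAG1 stayed positive in every one, and Dysf changed sign between the dyes.

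**Figure D3:**
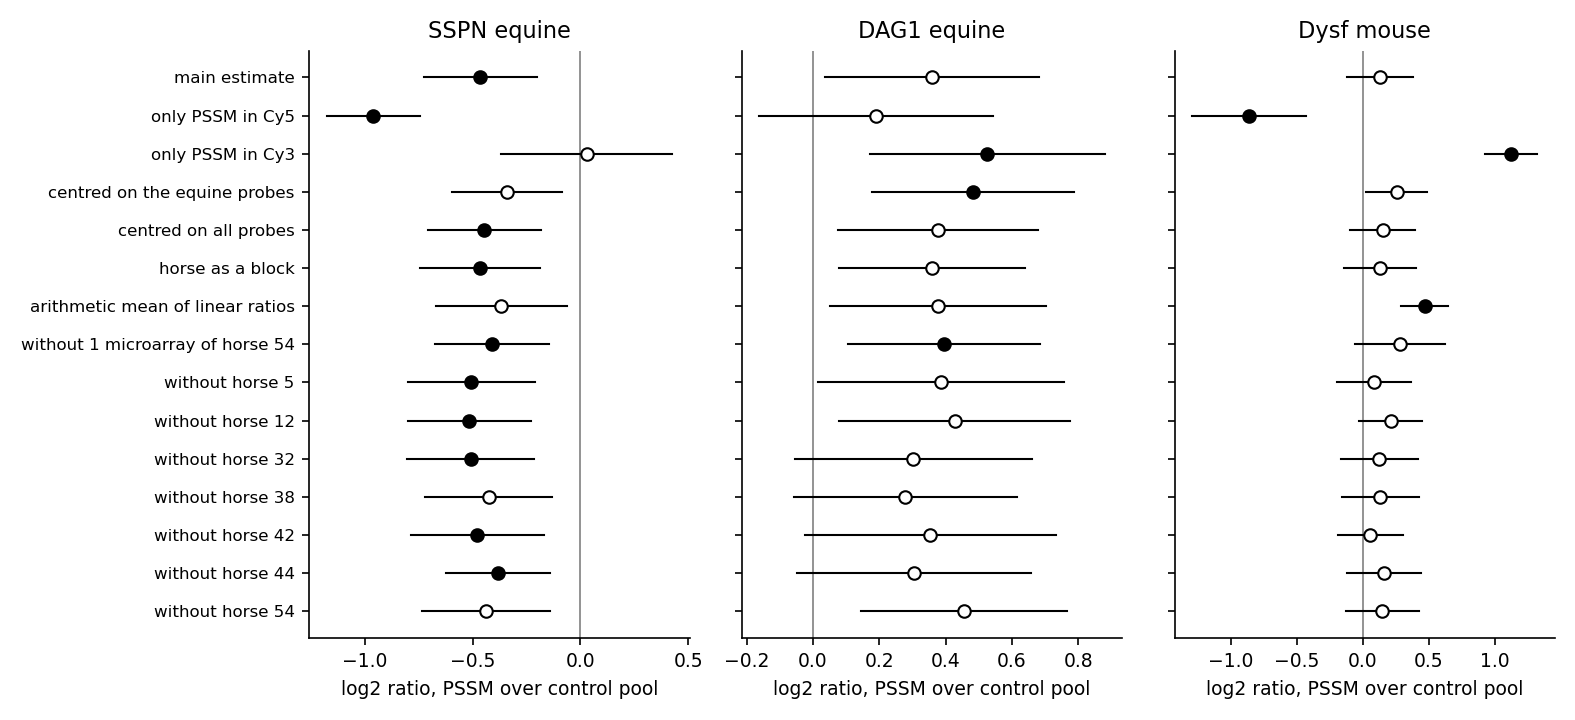
Mean log2 ratio of PSSM muscle over the control pool with its 95% interval (x axis) for equine SSPN, equine DAG1 and mouse Dysf under 15 settings (y axis); filled points had an adjusted p under 0.05. SSPN lies at -0.96 in Cy5 and 0.03 in Cy3, DAG1 at 0.19 and 0.53, and Dysf at -0.86 and 1.13.

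Marker genes of other cell types were read in the same horses, and some passed. Over all tested probes, 24.4% of the equine (4.43% up and 19.9% down) and 1.81% of the mouse probes (0.452% up and 1.36% down) passed. Of 3 equine fibroblast markers (COL1A1, LUM and FN1) 1 was called up, LUM, which codes for the matrix proteoglycan lumican. Its log2 ratio was 1.99 in horse 5, 1.59 in horse 12, 0.06 in horse 32, 1.72 in horse 38, 1.91 in horse 42, 4.30 in horse 44 and 0.005 in horse 54. The median of the 3 markers per horse ran between 0.005 and 3.38, and horse 44, the highest for LUM, was the lowest for SSPN and Sgcb, but horse 54, among the lowest for SSPN, was the lowest for LUM. On the mouse probes, 0 of 7 fibroblast markers were called up and 1 down (Fn1, -1.30 ± 0.74, n = 6), with a median of 0.835. The equine FN1 probe lay on the other side of 0, at 1.05 ± 1.16 (6 of 7 horses above 0, adjusted p = 0.0661). The difference between these FN1 probes was not tested. The paper's quantitative RT-PCR found FN1 down-regulated, opposite to its microarray result. Of 6 equine leukocyte markers 1 was up (ITGB2, log2 ratio 0.77 ± 0.62), and their median was 0.26, whereas 0 of 5 mouse probes of such markers passed (median 0.06), among them Itgb2 at 0.06 ± 0.21 (adjusted p = 0.743). Of 6 equine skeletal muscle fiber markers 1 was down (ATP2A1, the calcium pump of fast fibers, -0.68 ± 0.435), with a list median of -0.16. The highest of them, ACTN2, lay above 0 in 7 of 7 horses (0.37 ± 0.32, adjusted p = 0.0557). Of the 12 mouse probes of such markers 0 passed (median -0.09), among them Atp2a1 at -0.20 ± 0.25 (adjusted p = 0.292). Their means ran from -0.30 (Tnnt3, adjusted p = 0.256) to 0.59 (Casq1, 6 of 7 horses above 0, adjusted p = 0.112), which was the furthest from 0. Of 4 mouse smooth muscle probes 1 was down (median -0.31): Cnn1, the smooth muscle calponin, lay between -0.50 and -0.28 in the 7 horses (-0.38 ± 0.07, adjusted p = 0.0222), and 0 of 3 equine probes passed (median 0.24). No probe passed among the markers of regenerating fibers (1 equine and 11 mouse probes), adipocytes (1 and 5), endothelium (2 and 5) or nerve (4 mouse probes). The furthest from 0 in these lists were Myf6 (0.45, adjusted p = 0.0971) and Myf5 (0.29, 0.192), SCD (-0.57, 0.343) and Lpl (0.30, 0.214), Tie1 (-0.27, 0.287) and Kdr (-0.18, 0.236), and Pmp22 (0.30, 0.514) and Nefl (-0.25, 0.484). The part of these cell types in the member ratios was not tested.

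The rest of the complex and its surroundings were read through lists of related genes, with 55 tested probes. Of 8 equine probes 1 passed (12.5%) and of 47 mouse probes 2 (4.26%), and these 3 were up-regulated: ITGB1, Lamc1 and Ilk. Over all tested probes, 24.4% of the equine (4.43% up) and 1.81% of the mouse probes (0.452% up) passed. The list medians were 0.015 on the equine probes, against -0.08 over all, and 0.01 on the mouse probes, against -0.01 over all.

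ITGB1, the beta-1 integrin that forms the second laminin receptor of muscle fibers beside dystroglycan, was the furthest above the control pool. The equine probe read 0.80 in horse 5, 0.997 in horse 12, 0.47 in horse 32, 1.35 in horse 38, 0.595 in horse 42, 1.502 in horse 44 and 0.62 in horse 54. All horses were above 0, horses 44 and 38 the most, with a mean of 0.91 ± 0.40 (adjusted p = 0.00227), and it passed with each horse left out. The mouse probe of the gene, Itgb1 (AK014611), lay on the other side: 5 of 6 horses were below 0, with a mean of -0.30 ± 0.27 (95% interval -0.56 to -0.04) that did not pass (adjusted p = 0.2). The difference between the 2 probes was not tested. By dye the equine probe averaged 0.24 with PSSM muscle in Cy5 and 1.57 with PSSM muscle in Cy3. This dye difference, -1.33, passed (adjusted p = 0.0026 by limma on the differences). By quantitative RT-PCR the paper found ITGB1 down-regulated, opposite to its microarray result.

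Lamc1, the gamma-1 chain shared by most laminins, had a mean of 0.88 ± 0.49, between 0.15 (horse 54) and 1.70 (horse 44), above 0 in all horses (adjusted p = 0.0339). It averaged 0.27 in Cy5 and 1.495 in Cy3, a dye difference that passed (adjusted p = 0.00977). Ilk, the integrin-linked kinase that couples integrin to actin, had a mean of 0.46 ± 0.21, between 0.18 (horse 32) and 0.73 (horse 42), also above 0 in all horses (adjusted p = 0.0393). Neither call held with fewer horses in general: Lamc1 still passed without horse 54 and Ilk without horse 32, but each was lost when any other horse was left out.

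In the other lists no probe passed. Of the other complex genes 0 of 7 mouse probes were called (median 0.01), and the furthest from 0 were Dtna, alpha-dystrobrevin, at -0.43 ± 0.32 (adjusted p = 0.0918) and Sntb1, beta-1-syntrophin, at 0.20 ± 0.40 (0.442). Of the genes that glycosylate dystroglycan, 0 of 5 were called (median -0.08), with Dolk, the dolichol kinase, at -0.24 ± 0.14 (adjusted p = 0.131) and Dpm3, a subunit of dolichol-phosphate mannose synthase, at -0.13 ± 0.20 (0.418). Of the membrane repair genes, 0 of 2 equine and 0 of 9 mouse probes were called. Anxa2 (annexin A2) had a mean of 0.59 ± 0.86 (adjusted p = 0.282) and reached 2.19 in horse 44, and Capn3, the muscle calpain, had a mean of -0.38 ± 0.62 (adjusted p = 0.334) and was at -1.43 in that horse.

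**Figure D4:**
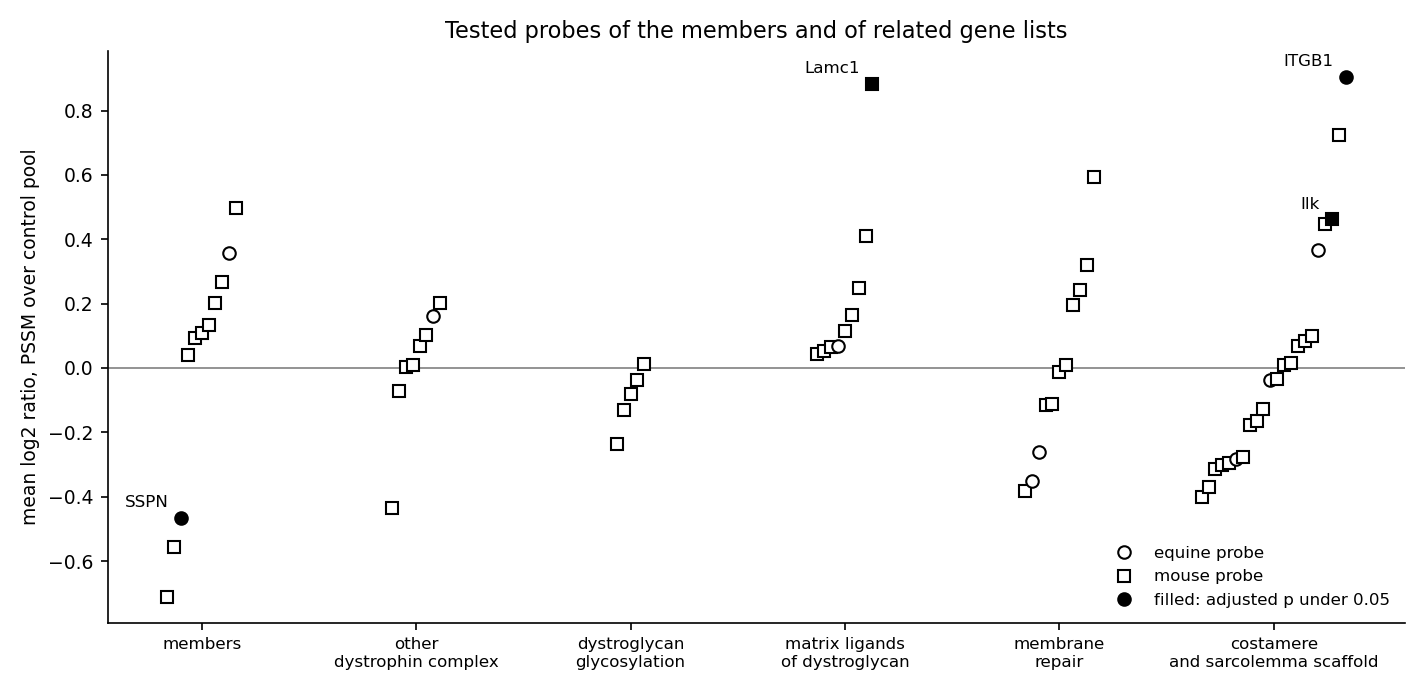
Mean log2 ratio of PSSM muscle over the control pool (y axis) of each tested probe, by gene list (x axis, members first); circles, equine probes; squares, mouse probes; filled, adjusted p under 0.05. SSPN is the filled point below 0 at -0.47, and ITGB1 (0.91), Lamc1 (0.88) and Ilk (0.46) are those above 0.

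The equine probes whose pattern over the 7 horses was most like that of a member were ranked by Pearson's r among 346 probes, as a description. For SSPN they were PLG (plasminogen, r = 0.983), CSF1 (a macrophage growth factor, 0.951) and STAT6 (a transcription factor of cytokine signaling, 0.940). Each was itself called down, at -0.54, -0.42 and -0.48 (adjusted p = 0.0081, 0.031 and 0.0212 by limma), as were 19.9% of all tested equine probes. For DAG1 they were LTB4R (a leukotriene receptor, 0.916), CSK (a tyrosine kinase, 0.899) and HSPG2 (perlecan, 0.894), a basement membrane proteoglycan that binds dystroglycan. All these values share their microarrays and the control pool. HSPG2 itself had a mean of 0.07 and did not pass (adjusted p = 0.683), with horse 38 the highest and horse 54 the lowest, as for DAG1. LTB4R (0.19, adjusted p = 0.299) and CSK (-0.007, adjusted p = 0.955) did not pass either.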

How the data were processed

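The deposited values are natural log (ln) ratios of Cy5 over Cy3: the authors quantified the scans with GenePix Pro 6.0, applied a Lowess normalization in GeneSpring and formed ratios, and the columns end at ratios of 0.01 and 100. The background correction and the rule behind empty cells are not given in the sources used here. Each value was expressed as PSSM over control, using the dyes given in the labels, put on the log2 scale and averaged per horse (2 microarrays), so a horse with 1 value carries the dye effect. A microarray held 7674 to 17071 values, 7 to 14 of them for member probes. The limma 3.58.1 functions lmFit and eBayes tested means against 0 where 5 or more horses had values (R 4.3.3; statmod 1.5.0 for the block), in place of the t-test of the methods, which was an alternative; the fit was tested on simulated data. A signal was taken to be at its lowest level (faint) where 10 times the linear ratio, or its inverse, came within 0.0002 of a whole number. This rule also marks ratios of 1 and values at the ratio end of 0.01, so a marked value need not be faint. Mouse probes carry 1 symbol (13430) or none (10679), from GEO's platform annotation.

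Members and lists were chosen with earlier results of these data known. Text names every member probe, every call of a gene or marker list (with none, its 2 means furthest from 0), and for each tested equine member the 3 most similar equine probes; 1 more gene of this rule is not reported here. The other alternatives were robust limma, each dye alone, 2 centrings, only complete probes, at least 2 horses, adjustment over all probes, linear means, leaving out faint values and leaving out each horse. Leaving out horses with 1 microarray, leaving out 1 microarray of horse 54 and leaving out each horse for the related lists were added after the values were seen. Python 3.11.15, pandas 2.3.3, numpy 2.4.6 and matplotlib 3.10.9 did the rest.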

Additional observations from a re-analysis of the deposited data

Results flagged for a closer look

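For Sgca, horse 54 lay at a log2 ratio of -3.53, far below the next horse (-1.06), a gap of 0.634 of the whole range of 7 horses. Without it the mean was -0.24. It was the only such value among 22 results looked at, of which chance would single out about 1 in 20. The Cy5 microarray of this horse was at the end of the deposited scale for this probe.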

How the results depend on the processing

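Of 223 combinations of a member probe and an alternative, 204 kept direction and side of the threshold. With the direction kept, 5 lost the call and 8 gained one, and 6 changed sign. Among those 6, SSPN in Cy3 alone also lost its call, and Dysf in Cy5 alone and Sgcb in Cy3 alone passed. The count of member probes called (1) was 2 with the horse as a block, 3 with PSSM in Cy5 alone (all down), 4 with PSSM in Cy3 alone (all up), 0 when adjusted over all probes, 2 without the Cy5 microarray of horse 54, and 0 to 1 with a horse left out (0 without horse 38 or 54). With PSSM in Cy5 alone Utrn (Y12229) was at -0.18 and Dysf at -0.86; with PSSM in Cy3 alone SSPN was at 0.03, Sgca at 0.10 and Sgcb at 0.53; with a horse left out Utrn ran from -0.007 (without horse 44) to 0.086, and the difference between equine DAG1 and the mouse Dag1 probe on AA407500 from -0.023 (without horse 32) to 0.382. No replicate pairing between groups exists, as all horses share 1 pool; the block fit keeps the 2 microarrays of a horse together.

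Over all equine probes the count (88) was 170 in Cy3 alone, 43 when adjusted over all probes, and 58 to 88 with a horse left out. Over all mouse probes (237) it was 75 with the methods' t-test, 921 with the block, 1575 in Cy5 and 2680 in Cy3 alone, 610 centred on the equine probes (447 up and 163 down, against 59 and 178), 382 for complete probes, 117 with at least 2 horses, 410 with linear means, 477 without faint values, 372 for horses with both microarrays, and 81 to 209 with a horse left out. The related lists (3 calls) had 5 for horses with both microarrays and 1 to 2 with a horse left out. The causes were not tested. Faint signals and 1 control pool limit these values.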
